A study of Mus musculus with 6 samples.

Results

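Prlr, Ghr, Stat5a, Cish, Socs2, Socs3, Tph1, Tph2, Ehhadh and Matn2 are genes of the prolactin and growth hormone response, and were followed in RNA of mouse pancreatic islets. They comprise 2 receptors, a signal transducer, 3 feedback inhibitors, both tryptophan hydroxylases and 2 further genes known to respond to prolactin in islets. They were chosen by name, and all 10 were found among the 55401 gene identifiers of the count table. Of the 10, 9 passed the filter on low counts, and Tph1 did not.

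The 3 libraries labelled KO came from male C57BL/6 mice with 2 floxed copies of Pdgfra and a Pdx1-Cre transgene. The 3 control libraries came from male C57BL/6 mice with 2 floxed copies of Pdgfra and no Cre, and mice of both groups were about 20 weeks old. Pdgfra encodes a receptor for platelet-derived growth factor, and the Pdx1 promoter is known to drive Cre in the pancreatic lineage rather than in beta cells alone. No library with Cre and unfloxed Pdgfra was analysed, so an effect of the Cre transgene and one of Pdgfra deletion cannot be told apart. The labels give islet as the tissue and beta cell as the cell type and name no sorting step. They number the mice within each group, and nothing in them ties every library to its own animal. In the count table the 3 KO columns carry an ending on their names that is missing from the control columns and is not explained, so whatever it marks cannot be told apart from genotype. The p-values therefore reflect how far these 6 libraries scatter, which may be technical.

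Prolactin, placental lactogens and growth hormone bind class I cytokine receptors that activate the kinase JAK2. JAK2 phosphorylates STAT5, which enters the nucleus and binds DNA at a short palindrome, and CISH and the SOCS proteins, themselves encoded by STAT targets, switch the receptors off. In pregnant mice, lactogens acting on the prolactin receptor of beta cells are known to induce serotonin synthesis and beta-cell growth. The genes are also read as a check of Cre lines, because some transgenes with a Cre driven in beta cells carry a human growth hormone minigene whose product acts on the mouse prolactin receptor. The labels do not say whether the Pdx1-Cre transgene used here carries one. A human sequence is not a gene of this mouse count table, so such a minigene could not be read directly.

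The letters TTCNNNGAA, the core that STAT5 and other STAT proteins recognise, were sought in promoter windows of 250 bases before to 50 bases after each RefSeq transcript start (GRCm38.p6). The motif is palindromic, so 1 strand reads both. RefSeq windows were at hand for 8 of the 10 genes, in 13 windows. Socs2 and Matn2 had no entry. Matches lay in 3 of the 13 windows, those of Cish, Socs3 and the second of 3 starts of Prlr, against 8.30% of 32851 promoters. The Cish window held 2 matches, the first beginning at the start base itself, and 0.457% of all promoters held 2 or more. The windows below show each match in capitals, since Cish and Socs3 are the feedback genes described further on; a match is a description of these letters and no evidence of binding.
Cish, plus strand, chr9:107296654-107296683: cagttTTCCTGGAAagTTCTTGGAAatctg
Socs3, minus strand, chr11:117969501-117969530: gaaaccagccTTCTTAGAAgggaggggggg
Prlr, plus strand, chr15:10223786-10223815: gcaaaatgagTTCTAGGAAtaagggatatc
The match of Socs3 began 154 bases before its listed start and that of Prlr 110 bases before.

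The targeted gene Pdgfra had 93, 25 and 125 counts in KO 1, 2 and 3, against 42, 88 and 116 counts in controls 1, 2 and 3. The groups overlapped, and since the table sums reads over all exons, these counts do not check the genotype labels. Library totals ran from 18247741 to 25039394 counts in KO and from 15026094 to 25299689 counts in controls. The islet label held in that all 12 beta-cell markers had counts in every group, with Ins1 and Ins2 taking 9.48% to 11.7% of counts in KO and 7.04% to 13.3% in controls. Digestive enzymes and other acinar markers took 15.5% to 27.8% in KO and 20.0% to 35.5% in controls, so the libraries were not beta cells alone. In such bulk samples, fewer cells of a type and less RNA per cell cannot be told apart. A ribosomal RNA locus took 5.36%, 12.6% and 18.5% of counts in KO 1, 2 and 3, against 4.38%, 3.32% and 4.51% in controls 1, 2 and 3. Every KO library lay above every control, so the share of this locus and genotype cannot be told apart. Values given below with this locus as a covariate are therefore descriptions only.

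The receptors were the most abundant of the 10 genes in islet RNA and the tryptophan hydroxylases the least. Levels were set in order as CPM (counts scaled to library size, with TMM factors) per kilobase of exon. Prlr averaged 24.2 ± 4.05 in KO and 21.9 ± 1.71 in controls (SD, n = 3 each), and ranked at the 94.2 percentile of all tested genes. Ghr averaged 16.8 ± 0.351 in KO and 16.9 ± 0.354 in controls. Ehhadh came next at 5.08 ± 0.620 in KO and 5.43 ± 1.08 in controls. The 6 library values of Prlr, Ghr and Ehhadh did not overlap one another.

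Below these, Matn2, Socs3, Cish, Socs2 and Stat5a followed in that order, and each overlapped its neighbour in the range of its 6 libraries. Their means over all 6 libraries were 2.77, 2.15, 1.54, 1.41 and 1.16 CPM per kilobase. Tph2 lay below them all at 0.638 ± 0.153 in KO and 0.394 ± 0.114 in controls. The length counted for each gene joins the exons of all its transcripts, 15339 bases for Prlr and 2879 for Tph2, so a gene with rarely used exons is understated on this scale.

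**Figure D1:**
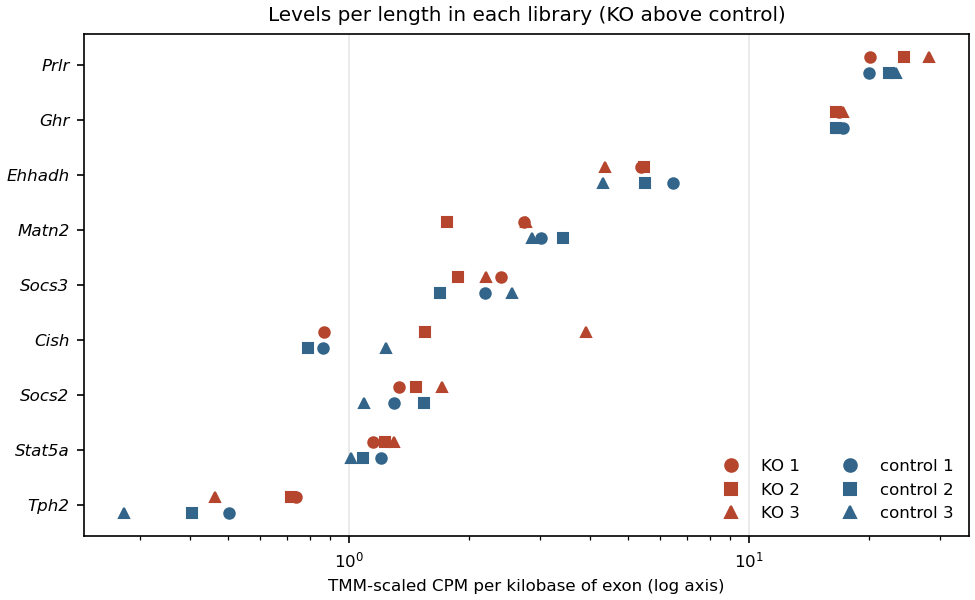
Levels of 9 of the 10 genes as TMM-scaled CPM per kilobase of exon (log axis), 1 point per library, with KO above control in each row. Prlr and Ghr stand at 16.5 or more in every library, Tph2 at 0.737 or less, and Cish is the gene whose libraries are most widely spread, from 0.790 to 3.91; Tph1 is left out because it had 0 counts in 4 libraries.

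In the comparison of KO with control islets, none of the 9 tested genes passed the threshold of 0.05 on the edgeR adjusted p, taken over all 14212 tested genes. Over all genes, 10 passed, or 0.0704%, so a count of 0 among 9 genes is near the background. At an unadjusted p under 0.05, Cish and Tph2 were the 2 of 9, both with positive values, where 7.37% of all tested genes stood. The 1048 genes behind that share split into 687 with positive and 361 with negative values. DESeq2 and limma-voom also called 0 of the 9, and 0 genes of the lists described below. The groups did not overlap for 1 of the 9 genes, Matn2, where 13.9% of all tested genes did not. The median log2 fold change of the 9 genes was 0.14, against -0.01 over all tested genes. Over all 14212 tested genes, 6798 values were positive and 7414 negative, which is the background for the counts of signs given below. Genes of a list can move together within a library, so those counts are descriptions.

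Prlr (ENSMUSG00000005268.20, chromosome 15, 10177238 to 10349180, GRCm38) encodes the prolactin receptor, which in mice binds prolactin and placental lactogens. It had 308, 375 and 432 CPM in KO 1, 2 and 3, against 307, 345 and 358 CPM in controls 1, 2 and 3. KO 1 matched the lowest control, and KO 2 and KO 3 lay above all controls. KO differed from control by 0.14 on the log2 scale (SE 0.14, 95% interval -0.18 to 0.46, edgeR adjusted p = 0.837). Without KO 3 the value was 0.02, without control 1 it was 0.08, without KO 1 it was 0.26, and with the ribosomal RNA locus as a covariate it was -0.22 (SE 0.20).

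Ghr (ENSMUSG00000055737.12, chromosome 15, 3317760 to 3583492), the growth hormone receptor, was the steadiest of the 10 genes. It had 152, 149 and 156 CPM in KO 1, 2 and 3, against 156, 150 and 152 CPM in controls 1, 2 and 3. The groups covered the same range, and differed by 0.00 on the log2 scale (SE 0.09, 95% interval -0.20 to 0.20, edgeR adjusted p = 0.9998).

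Stat5a (ENSMUSG00000004043.14, chromosome 11, 100859351 to 100885169) encodes one of the STAT5 proteins that carry the signal to the nucleus. It had 8.21, 8.80 and 9.25 CPM in KO 1, 2 and 3, against 8.58, 7.75 and 7.21 CPM in controls 1, 2 and 3. KO 1 lay below control 1, so the groups overlapped, and the log2 fold change was 0.17 (SE 0.13, edgeR adjusted p = 0.792). Without control 3 it was 0.10, and with the ribosomal RNA locus as a covariate 0.04. Its close copy Stat5b stood higher per length, at 9.004 ± 0.581 CPM per kilobase in KO and 7.74 ± 0.230 in controls (SD, n = 3 each), against 1.23 ± 0.0727 and 1.10 ± 0.0967 for Stat5a. Both counts are uncertain, since the treatment of reads that fit either copy is not stated. Exons of Stat3 on the opposite strand cover 72 bases (1.01%) of the Stat5a exons and had 10544 counts in all. The strand setting is not given, so the part of such reads in the Stat5a counts was not tested. Stat5b had 47.0, 49.3 and 53.3 CPM in KO, against 41.4, 43.7 and 43.5 CPM in controls, with every KO library above every control. Its log2 fold change was 0.22 (SE 0.09, edgeR adjusted p = 0.665).

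Cish (ENSMUSG00000032578.7, chromosome 9, 107296026 to 107302784), an inhibitor of cytokine receptors and a standard STAT5 target, had the widest spread of the 10 genes. It had 139, 160 and 660 counts in KO 1, 2 and 3, against 69, 87 and 242 counts in controls 1, 2 and 3. As CPM these were 5.57, 9.98 and 25.1 in KO, against 5.54, 5.07 and 7.97 in controls. KO 1 lay within the controls, KO 2 just above them and KO 3 far above, so the KO mean of 13.6 ± 10.3 CPM, against 6.19 ± 1.56 CPM in controls (SD, n = 3 each), rested mainly on 1 library.

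Cish differed between KO and control by 1.11 on the log2 scale (SE 0.47, 95% interval 0.06 to 2.16, unadjusted p = 0.0400, edgeR adjusted p = 0.673). Without KO 3 it was 0.28 (SE 0.28). Cish was highest in KO 3 and next in KO 2, the libraries in which the ribosomal RNA locus took 18.5% and 12.6% of counts. With that locus as a covariate the value of Cish turned to -0.76 (SE 0.35, edgeR adjusted p = 0.99997). That fit cannot separate the locus from genotype, since its share was higher in every KO library than in any control. Without the filter on low counts Cish passed the threshold, with a nearly equal value of 1.10 but an SE of 0.16 (edgeR adjusted p = 9.57e-10). In that setting 300 of 26297 tested genes passed. Of these, 281 were also tested with the filter, and 10 were called there. The same background holds for other genes named below as passing without the filter. Exons of a pair of antisense genes cover 4.07% and 7.46% of its exon bases and held 16 and 0 counts in all.

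Socs2 (ENSMUSG00000020027.18, chromosome 10, 95385362 to 95417180) encodes the main brake on growth hormone signalling in mice. It had 12.7, 14.0 and 16.3 CPM in KO 1, 2 and 3, against 12.4, 14.7 and 10.4 CPM in controls 1, 2 and 3. Control 2 lay between KO 2 and KO 3, and the log2 fold change was 0.21 (SE 0.15, edgeR adjusted p = 0.787). It was 0.08 without control 3, 0.10 without KO 3, 0.35 without control 2 and 0.03 with the ribosomal RNA locus as a covariate. Within KO, Prlr, Stat5a, Cish and Socs2 all ran in the order of the ribosomal RNA share, lowest in KO 1 and highest in KO 3. In controls the 4 genes did not share an order. Ghr, Socs3, Ehhadh and Matn2 did not run in the order of that share within KO, and Tph2 ran in the reverse order. How many of all tested genes ran in this order was not counted, so it is a description only. The acinar marker share ran opposite to the ribosomal RNA share in KO, at 27.8%, 25.3% and 15.5%, so the 2 shares cannot be told apart there. With the acinar share as a covariate, Cish stood at 0.50 (SE 0.29) and Prlr at 0.02 (SE 0.10). Stat5a then stood at 0.18 (SE 0.14) and Socs2 at 0.19 (SE 0.16). The parts of ribosomal RNA and of acinar cells in these values were not tested beyond these covariates.

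Socs3 (ENSMUSG00000053113.3, chromosome 11, 117966079 to 117970047), an inhibitor best known for damping STAT3 signals of the interleukin-6 family and of leptin, averaged 6.24 ± 0.758 CPM in KO and 6.20 ± 1.25 CPM in controls (SD, n = 3 each). It had 6.93, 5.43 and 6.35 CPM in KO 1, 2 and 3, against 6.34, 4.89 and 7.38 CPM in controls 1, 2 and 3. The KO values lay inside the range of the controls, and the difference was 0.00 on the log2 scale (SE 0.18, 95% interval -0.41 to 0.41, edgeR adjusted p = 0.997).

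**Figure D2:**
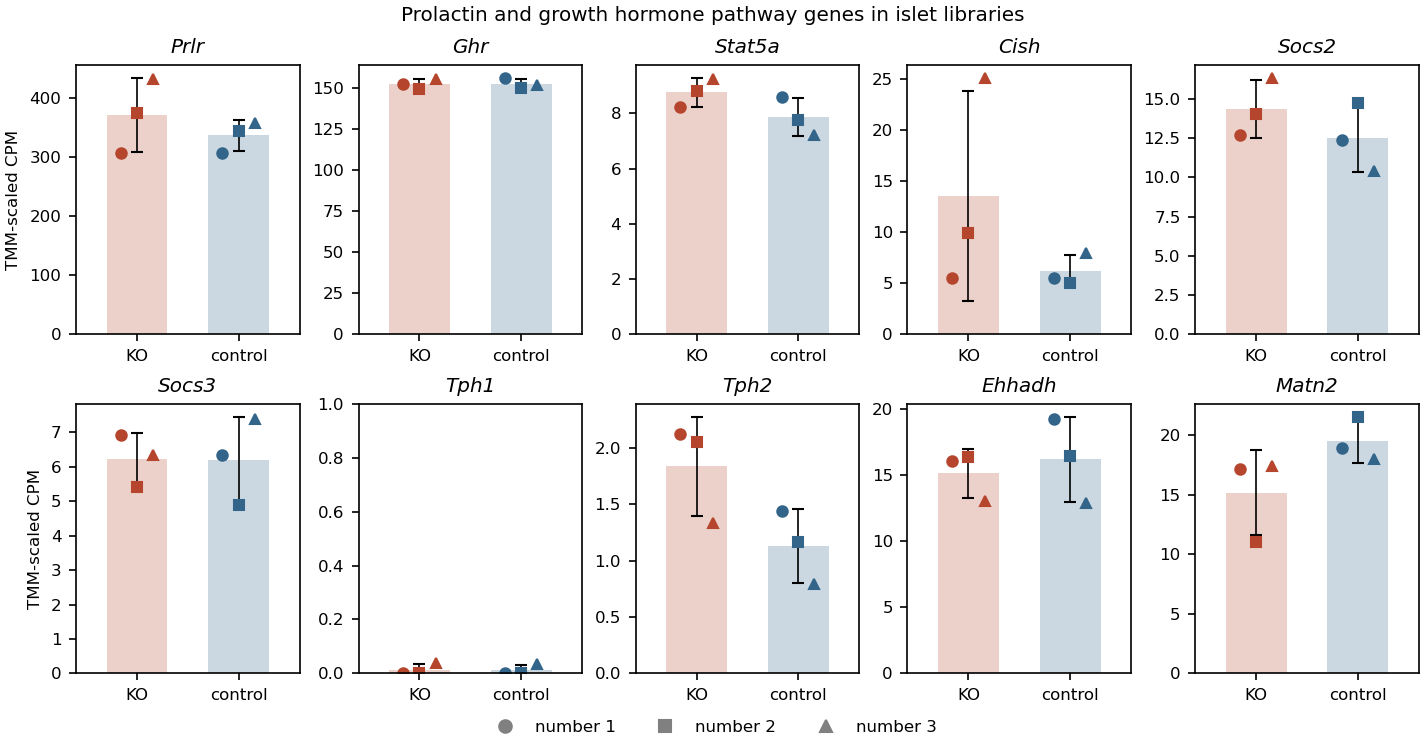
TMM-scaled CPM of the 10 genes by group, with KO left of control, bars at the mean, error bars of 1 SD (n = 3 each) and 1 point per library. Cish is set apart by KO 3 at 25.1 CPM, Tph2 lies higher in KO 1 and KO 2 than in any control, Matn2 lies below all controls in each KO library, and Tph1 stands at or near 0 in all 6; equal numbers in KO and control do not mark paired animals.

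Tph1 (ENSMUSG00000040046.14, chromosome 7, 46644641 to 46672537) encodes the tryptophan hydroxylase that starts serotonin synthesis outside the brain, and is among the genes most strongly induced in mouse islets in pregnancy. It had 0, 0 and 1 count in KO 1, 2 and 3, against 0, 0 and 1 count in controls 1, 2 and 3. A count of 0 allows a level of up to 3 counts, or 0.120 CPM in KO 1 and 0.187 in KO 2, against 0.241 in control 1 and 0.175 in control 2, for counting error only. Both groups lay under this floor, so no fold change is given.

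Tph2 (ENSMUSG00000006764.8, chromosome 10, 115078641 to 115185022), the tryptophan hydroxylase of brain neurons, was the form detected, at a low level. It had 53, 33 and 35 counts in KO 1, 2 and 3, against 18, 20 and 24 counts in controls 1, 2 and 3. As CPM these were 2.12, 2.06 and 1.33 in KO, against 1.44, 1.17 and 0.791 in controls, so that KO 3 lay below control 1. The difference was 0.75 on the log2 scale (SE 0.32, 95% interval 0.03 to 1.46, unadjusted p = 0.0426, edgeR adjusted p = 0.674). Without control 3 the value was 0.49 (SE 0.34).

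In each group Tph2 ran in the order of the acinar marker share, which was 27.8%, 25.3% and 15.5% in KO 1, 2 and 3 and 35.5%, 27.8% and 20.0% in controls 1, 2 and 3. With the acinar share as a covariate the log2 fold change was 0.97 (SE 0.27, edgeR adjusted p = 0.490). Mast cells are another site of serotonin synthesis in mice. A list of 8 genes held markers of mast cells and of serotonin-making enterochromaffin cells. Of these, Cma1 and Fcer1a had 0 counts in all 6 libraries, and Cpa3, Mcpt4 and Tpsb2 were below 1 CPM in each. Chga, also an islet endocrine gene, was abundant. Kit had 8.77, 6.67 and 6.89 CPM in KO 1, 2 and 3, against 7.62, 6.41 and 4.41 CPM in controls 1, 2 and 3. Hdc, which makes histamine, had 1.76, 1.81 and 1.48 CPM in KO, against 2.17, 1.17 and 1.32 CPM in controls. The part of mast or enterochromaffin cells in the Tph2 value was not tested.

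Of the 24 genes of serotonin synthesis, transport, breakdown and reception, 13 passed the filter on low counts and 0 passed the edgeR test in either direction, with 1 (Tph2) at an unadjusted p under 0.05 and a median log2 fold change of -0.05. Ddc, the enzyme after tryptophan hydroxylase, was abundant with 253, 276 and 253 CPM in KO, against 222, 255 and 269 CPM in controls. Slc6a4, the serotonin transporter, had 1.92, 1.31 and 1.26 CPM in KO, against 4.17, 2.33 and 1.28 CPM in controls. Its log2 fold change was -0.71 (SE 0.41, edgeR adjusted p = 0.744), and KO 1 lay above control 3. Like Tph2, Slc6a4 ran in the order of the acinar marker share in each group, and the part of acinar cells in its value was not tested. Maob, a monoamine oxidase, had a value of 0.16 (SE 0.10), and Spr, an enzyme of the hydroxylases' cofactor, of -0.15 (SE 0.12). Htr2b, the receptor through which serotonin acts on beta cells in pregnant mice, had 6 counts in the 3 KO libraries together, against 3 in the controls.

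Ehhadh (ENSMUSG00000022853.7, chromosome 16, 21761287 to 21787807), an enzyme of peroxisomal fatty acid oxidation that prolactin is known to raise in islets, had 16.1, 16.3 and 13.01 CPM in KO 1, 2 and 3. The controls 1, 2 and 3 had 19.3, 16.4 and 12.8 CPM, so the KO values lay inside their range. The difference was -0.08 on the log2 scale (SE 0.16, 95% interval -0.44 to 0.27, edgeR adjusted p = 0.917). Ehhadh was highest in control 1, which had the highest acinar share of 35.5%, and low in KO 3 and control 3, which had the lowest shares. With the acinar share as a covariate the value was 0.07 (SE 0.11).

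The 15 genes of peroxisomal oxidation gave 14 tested, 0 called in either direction by edgeR, 0 at an unadjusted p under 0.05 and a median log2 fold change of -0.08. Hsd17b4 and Acaa1a, enzymes of the same pathway, had values of -0.12 (SE 0.09) and -0.16 (SE 0.13). Ppara, the nuclear receptor that drives Ehhadh in mouse liver, had 0.881, 0.873 and 1.45 CPM in KO, against 2.65, 1.34 and 0.955 CPM in controls (log2 fold change -0.52, SE 0.41, edgeR adjusted p = 0.794).

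Matn2 (ENSMUSG00000022324.15, chromosome 15, 34306677 to 34436273), which encodes the matrix protein matrilin-2, was the gene of the 10 whose groups did not overlap. It had 17.1, 11.04 and 17.4 CPM in KO 1, 2 and 3, against 18.9, 21.6 and 18.0 CPM in controls 1, 2 and 3. All KO libraries lay below all controls, KO 1 and KO 3 by little and KO 2 by more. The difference was -0.35 on the log2 scale (SE 0.17, 95% interval -0.72 to 0.03, unadjusted p = 0.0662, edgeR adjusted p = 0.708), and without KO 2 it was -0.17 (SE 0.12).

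Markers of several other cell types were also lowest in KO 2. The 10 fibroblast markers, one of which is the floxed gene Pdgfra itself, together took 0.0291%, 0.00922% and 0.0346% of counts in KO 1, 2 and 3, against 0.0249%, 0.0435% and 0.0289% in controls 1, 2 and 3, with none of them at 0 counts in all 6 libraries, and all 10 had negative log2 fold changes (-0.26 for Pdgfra), of which 0 were called by edgeR and 0 had an unadjusted p under 0.05. Of 10 matrilin and matrix genes, 8 were tested, 8 had negative values, 0 were called by edgeR, 0 had an unadjusted p under 0.05 and the median was -0.35. Matn4, Lamb1 and Nid1 had values of -0.64 (SE 0.44), -0.34 (SE 0.26) and -0.26 (SE 0.27), and Lamb1, a laminin chain, had 9.29 CPM in KO 2 where the other 5 libraries had 21.2 to 23.6. Endothelial markers took 0.0452%, 0.0231% and 0.0526% in KO, against 0.0332%, 0.0481% and 0.0573% in controls. Macrophage markers took 0.0112%, 0.00778% and 0.0109% in KO, against 0.00878%, 0.0126% and 0.0121% in controls. Duct and Schwann cell markers were lowest in KO 2 as well, at 0.0263% and 0.00180%. The part of these cell types in the Matn2 value was not tested.

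**Figure D3:**
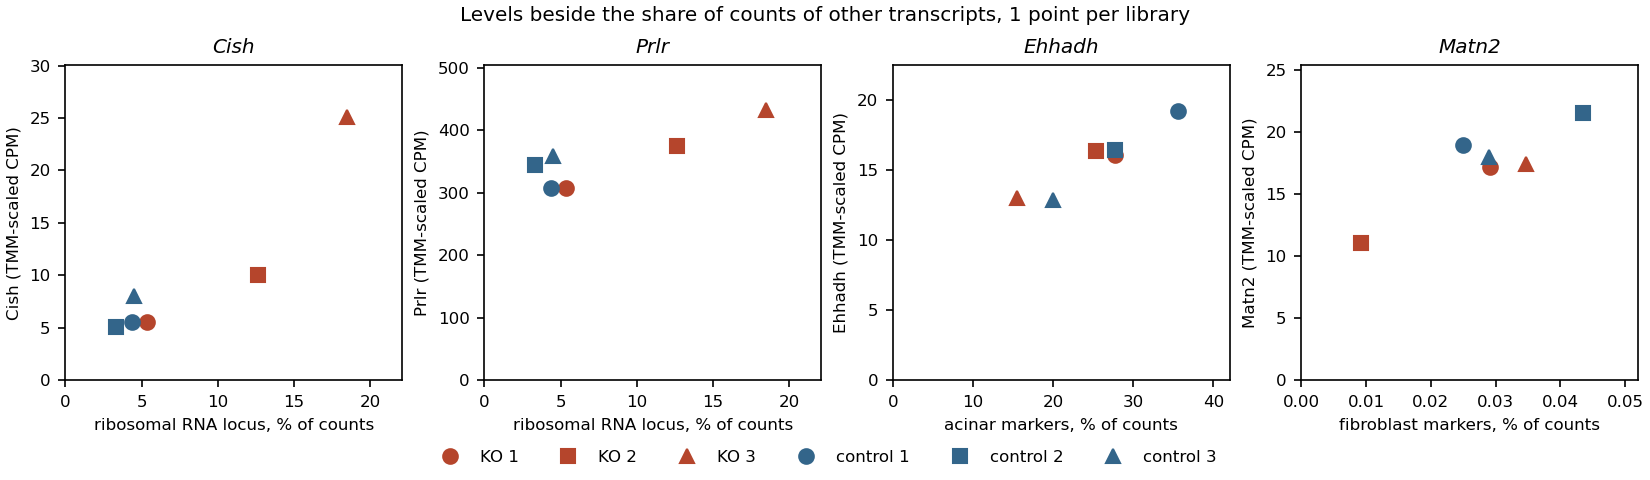
Levels of Cish, Prlr, Ehhadh and Matn2 (TMM-scaled CPM, vertical axes) against the share of counts of the ribosomal RNA locus, acinar markers or fibroblast markers (percent, horizontal axes), 1 point per library. Cish and Prlr are highest in KO 3 at a ribosomal RNA share of 18.5%, Ehhadh is highest in control 1 at an acinar share of 35.5%, and Matn2 is lowest in KO 2 at a fibroblast share of 0.00922%.

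The components that pass the receptor signal on were present in both groups and none was called. Of 21 receptor, kinase, STAT, phosphatase and adaptor genes, 20 were tested and 0 passed in either direction by edgeR, with a median log2 fold change of 0.04. At an unadjusted p under 0.05 there were 3, all positive, against 7.37% of all tested genes. Jak2, the kinase bound to both receptors, had 19.8, 17.1 and 19.8 CPM in KO, against 19.5, 20.7 and 18.8 CPM in controls (log2 fold change -0.05, SE 0.10). The smallest p-values of this list were those of the insulin receptor substrates, adaptors that also take part in prolactin signalling. Irs2 had 29.8, 33.4 and 46.7 CPM in KO, against 21.4, 20.8 and 27.0 CPM in controls, with every KO library above every control. Its log2 fold change was 0.66 (SE 0.17, edgeR adjusted p = 0.485).

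Irs1 had 7.45, 6.42 and 12.0 CPM in KO, against 5.13, 5.42 and 4.78 CPM in controls, or 0.77 higher on the log2 scale (SE 0.23, edgeR adjusted p = 0.537). Both were highest in KO 3, as was Cish. Without KO 3 the value of Irs2 was 0.44 and that of Irs1 was 0.45. With the ribosomal RNA locus as a covariate the value of Irs2 was 0.15, and that of Irs1 was 0.35. Both passed the threshold without the filter on low counts (edgeR adjusted p = 1.98e-05 for Irs2 and 0.00250 for Irs1), where 300 of 26297 tested genes did.

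In the SOCS family, 7 of 8 genes were tested, all 7 had positive values and 0 were called by edgeR, with 1 (Cish) at an unadjusted p under 0.05 and a median log2 fold change of 0.07. Socs4, Socs7 and Socs5 had values of 0.21 (SE 0.11), 0.07 (SE 0.10) and 0.00 (SE 0.09). Socs3 and Socs6 also stood at 0.00 (SE 0.18 and 0.12), so the 7 positive signs do not amount to a rise of the whole family. Among 14 class I cytokine receptors, of which 12 were tested and 0 called by edgeR, Il6ra and Lifr were the 2 with an unadjusted p under 0.05, with log2 fold changes of 0.31 (SE 0.11) and 0.48 (SE 0.17) and an edgeR adjusted p of 0.618 each. Lifr, the receptor of leukaemia inhibitory factor, had 99.9, 118 and 162 CPM in KO, against 104, 88.4 and 81.3 CPM in controls, and its value was 0.26 without KO 3 and -0.04 with the ribosomal RNA locus as a covariate. It passed the threshold without the filter on low counts (edgeR adjusted p = 0.0175). Il2rg, the shared interleukin-2 receptor chain, had a value of -0.58 (SE 0.38).

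Of 24 genes that respond to prolactin or pregnancy in islets, including 7 of the 10 followed here, 22 were tested, 12 had positive and 10 negative values and 0 were called by edgeR. At an unadjusted p under 0.05 there were 6, of which 4 were higher and 2 lower in KO, against 7.37% of all tested genes. The median log2 fold change was 0.02. The list was not sorted by the direction in which each gene responds, so its signs and median do not measure a response. Bcl6, a transcriptional repressor whose gene STAT5 is known to silence, had 4.49, 1.81 and 3.61 CPM in KO, against 7.14, 7.05 and 6.65 CPM in controls. All KO libraries lay below all controls, KO 2 lowest, and the difference was -1.04 on the log2 scale (SE 0.26, edgeR adjusted p = 0.452). Bcl6 passed the threshold without the filter on low counts (edgeR adjusted p = 4.83e-05) and in no other alternative. Ccnd1, a D-type cyclin, had 77.3, 89.9 and 84.2 CPM in KO, against 104, 111 and 109 CPM in controls (log2 fold change -0.36, SE 0.09, edgeR adjusted p = 0.460). Slc2a2, the glucose transporter GLUT2, had 603, 605 and 702 CPM in KO, against 434, 511 and 548 CPM in controls (log2 fold change 0.36, SE 0.14, edgeR adjusted p = 0.637).

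Of 14 STAT5 targets known from other tissues, 12 were tested and 0 were called by edgeR, with a median log2 fold change of -0.04. These targets, Bcl6 among them, were not sorted by direction either, so the same limit holds for their median. At an unadjusted p under 0.05 there were 4, of which 2 were higher and 2 lower in KO, against 7.37% of all tested genes. Pim3, a survival kinase, had 31.0, 31.4 and 23.1 CPM in KO, against 27.0, 20.0 and 17.0 CPM in controls (log2 fold change 0.43, SE 0.18, edgeR adjusted p = 0.671). Without control 3 its value was 0.28. It passed the threshold with the acinar share as a covariate, at 0.62 (SE 0.10, edgeR adjusted p = 0.0427), and without the filter on low counts (edgeR adjusted p = 0.0462). Mouse Gh and Prl, the genes of the pituitary hormones themselves, had 0 counts in all 6 libraries, which allows up to 0.0988 CPM in the deepest library, control 3, and 0.241 CPM in the shallowest, control 1. Of 9 ligand and growth factor axis genes, 5 were tested, 5 had negative values and 0 were called by edgeR, with 1 (Igfbp3) at an unadjusted p under 0.05 and a median of -0.17. Igfbp3, a binding protein of insulin-like growth factors, had 45.4, 35.3 and 50.2 CPM in KO, against 51.9, 61.9 and 57.8 CPM in controls (log2 fold change -0.39, SE 0.13, edgeR adjusted p = 0.598). Igf1r and Igf1 had values of -0.11 (SE 0.15) and -0.21 (SE 0.32).

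**Figure D4:**
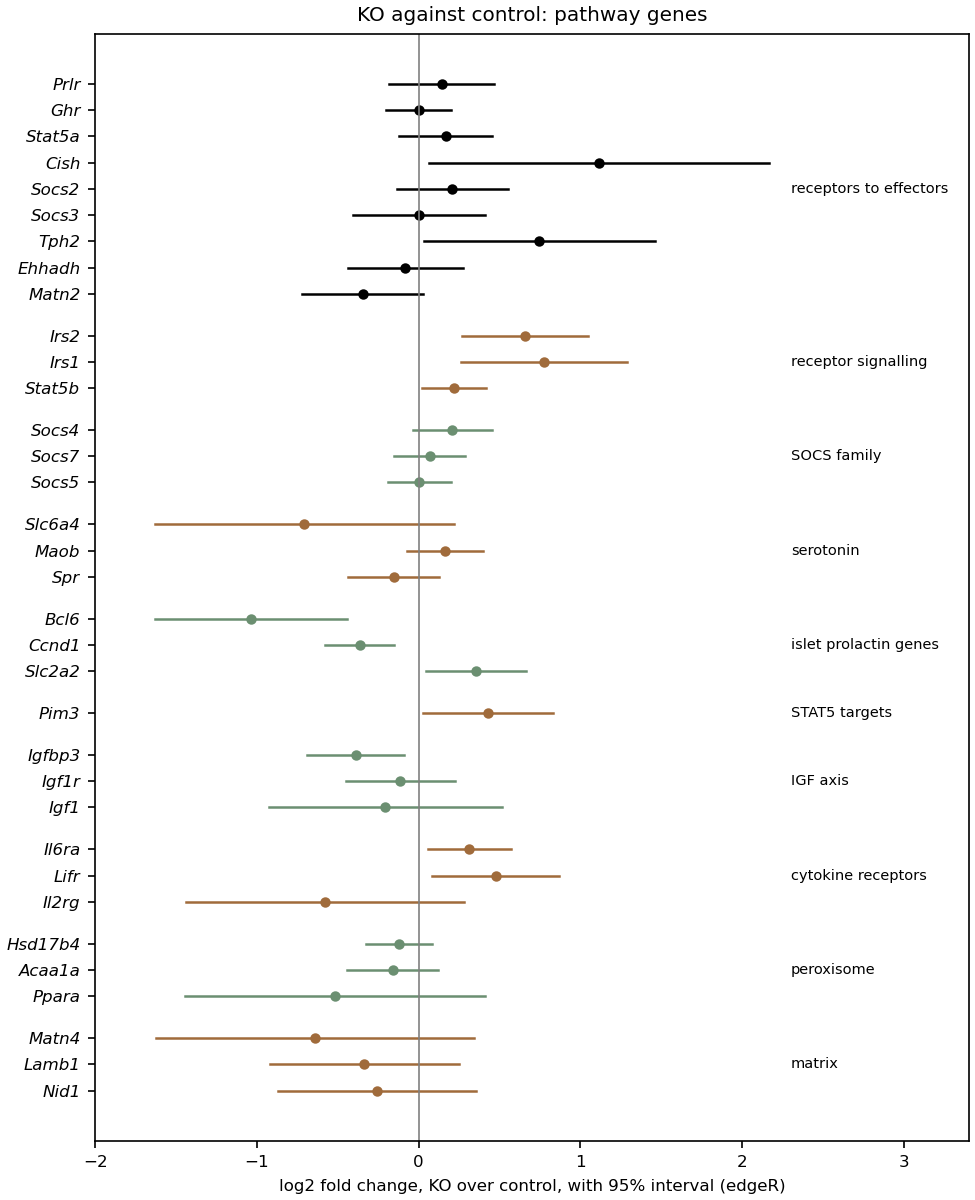
Log2 fold changes of KO over control (horizontal axis) with 95% intervals from edgeR, for 9 of the 10 genes (black) and the other genes named from each list (in colours that alternate from list to list). The intervals of Cish (0.06 to 2.16) and Tph2 (0.03 to 1.46) are the widest among the black ones, and none of the genes shown passed the threshold after adjustment over all genes.

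The genes whose pattern over the 6 libraries was most like that of Cish were Ksr2, Pdpk1 and Pikfyve, each with a Pearson r of 0.991 to 0.992 of log2 CPM among 11593 genes compared. Ksr2, a scaffold of RAF signalling, had 34.2, 44.4 and 59.3 CPM in KO 1, 2 and 3, against 32.8, 33.0 and 37.6 CPM in controls, so that it too was highest in KO 3. For Prlr they were Canx, Stk38l and Tmod2, with r of 0.992, 0.987 and 0.986. Canx, an endoplasmic reticulum chaperone, had 536, 580 and 616 CPM in KO, against 533, 552 and 563 CPM in controls. With 6 points that share depth, cell makeup and ribosomal RNA within each library, these are descriptions of the libraries.

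**Figure D5:**
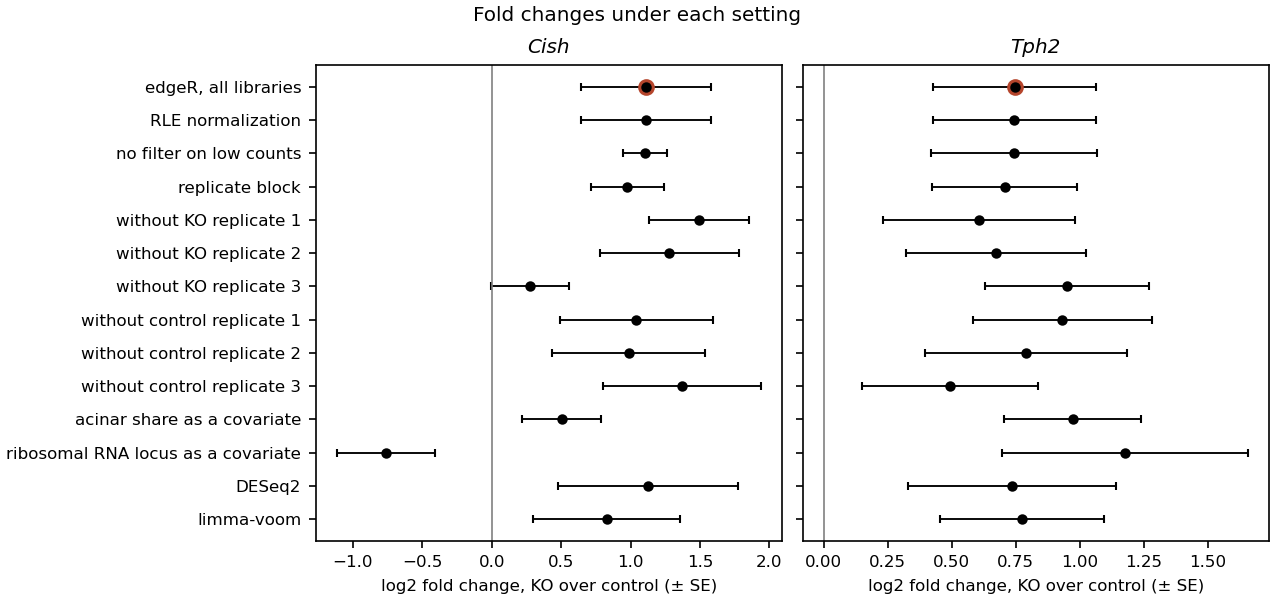
Log2 fold change of KO over control for Cish and Tph2 (horizontal axes, bars of 1 SE) in the fit of all libraries and in each of 13 alternatives. Cish moves to 0.28 without KO 3 and to -0.76 with the ribosomal RNA locus as a covariate, while Tph2 stays between 0.49 and 1.18.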

How the data were processed

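Islet RNA of 6 libraries, 3 labelled KO and 3 labelled control, was turned into mRNA libraries, per the labels' protocols. The authors deposited raw read counts per gene, with exon positions and length (GRCm38 coordinates). The submitters' processing notes list featureCounts 2.0.0, STAR 2.7.9 and the builds GRCm38.p6 and mm10. Which annotation release, strand setting and treatment of shared reads applied is not given in the sources used here. Of the 55401 identifiers, 55141 were given a symbol.

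Genes were kept by filterByExpr (minimum count 10, minimum total 15) and tested with edgeR 4.0.16 (glmQLFit, glmQLFTest, TMM, R 4.3.3), genotype being the only term. P-values are two-sided and adjusted by Benjamini-Hochberg over 14212 genes, with a threshold of 0.05. Alternatives were RLE normalization, no filter, each library left out, a block on the replicate number, an acinar or ribosomal RNA covariate, DESeq2 1.42.0 and limma-voom (limma 3.58.1). CPM is TMM-scaled. Named from each list were the 3 other tested genes with the smallest p, and for Cish and Prlr the 3 genes with the highest r at a mean log2 CPM of at least 1; Jak2, Ddc, Htr2b, Gh and Prl were named for their roles. The genes and lists were chosen with earlier results of these data known. The test was run on simulated counts with the same biological coefficient of variation, 0.14, for every gene. There it recovered 76.7% of log2 changes of 1, and 2.75% of its calls were false. The simulation held no differences in ribosomal RNA or acinar share between libraries, so it does not check the test under those. Counts of any 2 libraries differed by more than sampling noise (chi-square over its degrees of freedom at least 13.3). Promoters came from RefSeq (GRCm38.p6). Figures used Python 3.11.15 and matplotlib 3.10.9.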

Additional observations from a re-analysis of the deposited data

How the results depend on the processing

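Over 13 alternatives, none of the 9 tested genes passed the threshold except Cish without the filter on low counts (1 of the 10 genes called, edgeR adjusted p = 9.57e-10); the cause was not tested. Matn2, Socs2, Stat5a and Tph2 kept their direction in all 13. Under the ribosomal RNA covariate Cish turned to -0.76, Prlr to -0.22 and Ehhadh to 0.11, and under the acinar covariate Ehhadh turned to 0.075 and Socs3 to -0.033. Values near 0 changed sign: Ghr stood at -0.0024 with RLE normalization, -0.0030 without the filter, -0.0016 with the acinar covariate, -0.022 with the ribosomal RNA covariate, -0.0021 with DESeq2 and -0.0013 with limma-voom, and Socs3 at -0.0015 without the filter. With 1 library left out, Ghr ranged from -0.015 to 0.016, Socs3 from -0.14 to 0.17 and Ehhadh from -0.24 to 0.053. The number of called genes, 10 of 14212 at first, was 300 of 26297 without the filter and 36 with the replicate block. It was 31 and 1 with the acinar and ribosomal RNA covariates, 48 with DESeq2 and 6 with limma-voom. When a library was dropped, which leaves fewer samples, it was 2 to 6. Of the pathway list genes, 0 at first, 6 were called without the filter (Bcl6, Cish, Pim3, Irs2, Lifr and Irs1), 1 with the replicate block (Irs2, at 0.65, edgeR adjusted p = 0.0481) and 1 with the acinar covariate (Pim3). Libraries with the same number deviated from their group means with correlations of 0.157, -0.156 and 0.142, and not every library correlated best with its own number, so a pairing by number is not shown. With a count of 0 to 1 per library, depth limits what can be said of Tph1.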
